A study of Mus musculus with 16 samples.

Results

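The genes of fatty acid synthesis, desaturation and elongation described here were 10 of the 27745 gene names on the array, namely Acly, Acaca, Fasn, Scd1, Scd2, Elovl5, Elovl6, Fads1, Fads2 and the transcription factor gene Srebf1. They were taken by name, as every probe besides the controls that carried one of these gene names, which gave 16 probes. Their RNA was measured in gastrocnemius, a muscle of the calf, of male C57BL/6N mice that were 3 months old at the start and ate their diet for 8 weeks. Both groups ate a corn-oil-based high-fat diet (cHF, with lipids at 35% of the diet) that contained rosiglitazone, an activator of the nuclear receptor PPARγ, at 10 mg/kg diet. In 8 mice this was the whole intervention (cHF+ROSI). In the other 8 mice (cHF+F+ROSI) a concentrate of long-chain n-3 polyunsaturated fatty acids (n-3 LC-PUFA, with 46% DHA and 14% EPA) also replaced 15% of the dietary lipids. All 16 mice were fasted for 10 h in the light phase and then re-fed Chow overnight, without the test diets, and were killed the next morning. The comparison asked how the n-3 LC-PUFA changed these RNAs on top of rosiglitazone. A mouse without rosiglitazone was not part of it.

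Fatty acid synthesis starts in the cytosol from citrate. ATP citrate lyase (Acly) makes acetyl-CoA, acetyl-CoA carboxylase (Acaca) makes malonyl-CoA, and fatty acid synthase (Fasn) joins these units into palmitate. Elovl6 lengthens palmitate, and the delta-9 desaturases Scd1 and Scd2 place a double bond in saturated chains to give the monounsaturated fatty acids of triglycerides and membranes. The delta-6 desaturase Fads2, the delta-5 desaturase Fads1 and the elongase Elovl5 act together on the essential fatty acids and yield arachidonic acid and EPA. Srebf1 encodes SREBP-1, a transcription factor that activates most of these genes after feeding and insulin, and polyunsaturated fatty acids are known to lower its activity in liver. Fat cells and liver express most of these enzymes strongly, and gastrocnemius dissected from a mouse on a high-fat diet can hold fat cells between the fibres.

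Promoter sequence was read for the genes on which the comparison turned and for which RefSeq (GRCm38.p6) gave one. A promoter was listed for 7 of the 10 genes, and not for Scd1, Scd2 or Fads1. Srebf1, the member with the smallest p between the diets, had 3 listed starts, and that of the lowest chromosome position was taken. The others were Fasn, the member with the smallest p for Scd1 beside the diet, and Elovl5. The 3 windows shown are the 250 bases before these starts. They are written 5′ to 3′ on the strand of the gene, with matches on either strand in capitals to the letters CACGTG, known as an E-box, to the CCAAT box of those letters, or to GGGCGG, known as a GC box.
Srebf1, chr11:60210472-60210721, minus strand: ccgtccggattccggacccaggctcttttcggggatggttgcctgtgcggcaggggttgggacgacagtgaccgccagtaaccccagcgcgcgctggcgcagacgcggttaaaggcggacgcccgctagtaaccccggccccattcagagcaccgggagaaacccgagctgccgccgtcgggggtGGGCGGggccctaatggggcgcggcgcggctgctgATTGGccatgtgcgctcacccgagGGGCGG
Fasn, chr11:120824548-120824797, minus strand: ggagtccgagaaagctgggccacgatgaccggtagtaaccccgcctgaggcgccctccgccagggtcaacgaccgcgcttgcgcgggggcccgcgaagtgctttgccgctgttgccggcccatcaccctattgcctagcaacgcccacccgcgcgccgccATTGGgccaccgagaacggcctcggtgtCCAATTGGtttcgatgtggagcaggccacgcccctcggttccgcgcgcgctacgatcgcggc
Elovl5, chr9:77917115-77917364, plus strand: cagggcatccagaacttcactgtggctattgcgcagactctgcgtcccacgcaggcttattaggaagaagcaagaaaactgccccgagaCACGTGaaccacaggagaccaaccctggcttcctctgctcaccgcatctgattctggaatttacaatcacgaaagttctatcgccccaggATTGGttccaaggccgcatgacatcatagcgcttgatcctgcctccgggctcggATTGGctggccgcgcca

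The Srebf1 window shown held 1 CCAAT box and 2 GC boxes. Of its windows not shown, 1 held 2 GC boxes and no CCAAT box, and 1 held 1 CCAAT box and no GC box. The Fasn window held 3 matches to the CCAAT box, of which a pair overlapped on opposite strands. The Elovl5 window held 1 E-box and 2 CCAAT boxes. Over the 9 windows of the 7 genes (Srebf1 had 3 starts), the CCAAT box was found in 4, the GC box in 4 and the E-box in 1, against 33.8%, 32.7% and 6.02% of all 32851 windows of the same length. A sterol regulatory element written as TCACNCCAC, the kind of site that SREBP binds, was found on neither strand of the 9 windows, and in 1.05% of all windows. These counts describe letters in a short window and nothing about binding.

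Each array carried the RNA of 1 mouse in Cy5 and, in Cy3, a common reference pool of labelled RNA from the array groups. The authors name mice on a higher dose of rosiglitazone as part of the pool where they describe their first array study, which lacked cHF+F+ROSI. Whether the pool of these 16 arrays held those mice was not settled here. A value is the log2 ratio of a mouse to the pool, and values were compared between mice and not between genes. The 16 arrays lay on 4 slides, each slide holding 2 mice of each group. On every slide the diets alternated in the same order, with cHF+ROSI first, so the position on the slide and the diet cannot be told apart. The median Cy5 signal over background ran from 2.33 to 3.64 for the cHF+ROSI mice, from 2.98 to 3.46 for the others, and the lowest belonged to cHF+ROSI replicate 1. All 8 skeletal muscle markers were above background on all 16 arrays. Of the 16 probes of the 10 genes, 12 passed the filter on dim spots and were well above background on all 16 arrays. Every gene was represented, with 2 probes for Elovl5 and Fasn and 1 for the other 8 genes. The 4 dim probes, 3 of Acaca and 1 of Acly, are given with their genes.

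Between the diets, Scd1, Srebf1 and 1 of the 2 Elovl5 probes were lower in cHF+F+ROSI at an unadjusted p of up to 0.05 by limma, and Acaca was higher. Scd2, Fads1, Fads2, Elovl6, Fasn and Acly did not pass that threshold. Of the 12 probes, 3 were thus lower and 1 higher, where 3.96% and 3.5% of all 19398 probes tested were, or 7.46% in either direction. None of the 12 passed after Benjamini-Hochberg adjustment over all probes, as 0.0155% of all probes (3 of 19398) did. The median log2 fold change over the 10 genes, each by its brightest probe, was 0.00, and that over all probes was also 0.00. Confidence intervals are given at the 95% level. The p-values measure the spread between mice and take each array as 1 animal.

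**Figure D1:**
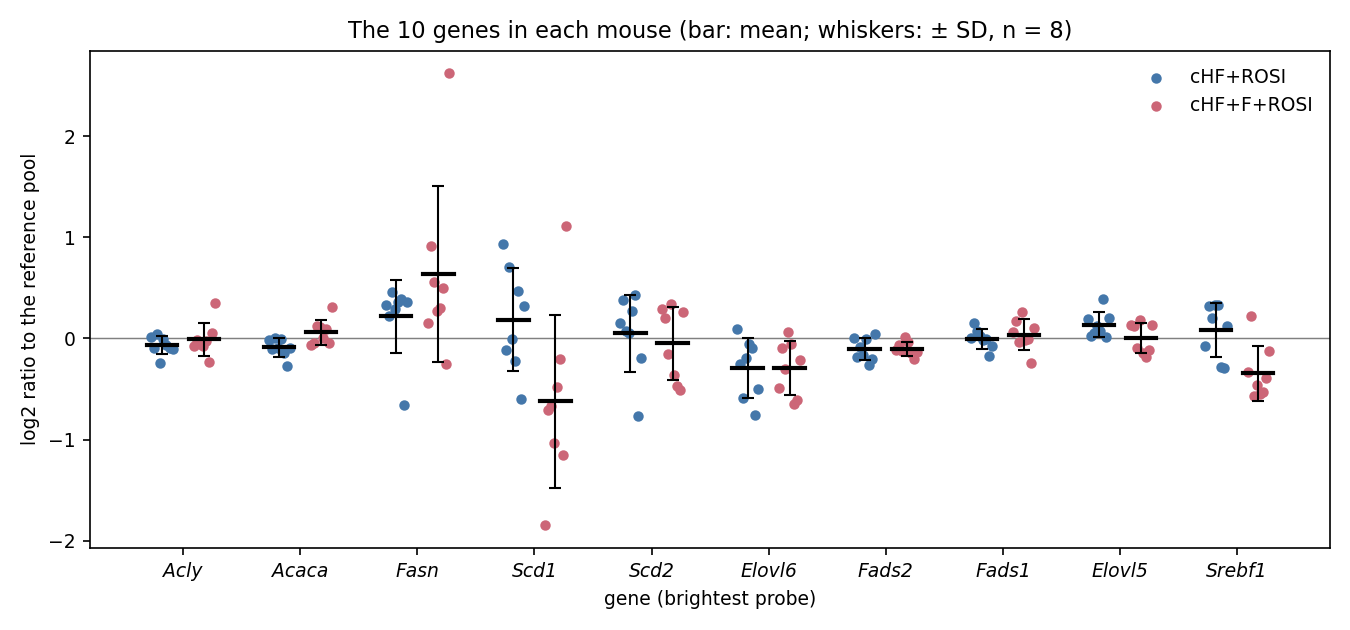
Log2 ratio to the reference pool (vertical axis) of the 10 genes (horizontal axis), each by its brightest probe. Points are single mice (8 cHF+ROSI, 8 cHF+F+ROSI), bars are means and whiskers ± SD. The widest spreads belong to Scd1 and Fasn, and 1 cHF+F+ROSI mouse stands at 2.62 for Fasn and at 1.12 for Scd1.

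Scd1 was the member with the largest difference. Its probe (chr19:44448208-44448267 in NCBI36, minus strand) had log2 ratios in the 8 cHF+ROSI mice from -0.60 over a median of 0.16 to 0.94. In the 8 cHF+F+ROSI mice they ran from -1.85 over a median of -0.69 to 1.12. Of the cHF+F+ROSI mice, 7 were below the cHF+ROSI mean and 5 were below every cHF+ROSI mouse, while 1 (replicate 8) was above every cHF+ROSI mouse, so the groups overlapped. The means were -0.62 ± 0.86 and 0.19 ± 0.51 (SD, n = 8 each), a log2 fold change of -0.81 with an SE of 0.32 and a confidence interval of -1.48 to -0.14. This is 1.75-fold lower, with an unadjusted limma p of 0.0205, an adjusted p of 0.591 and an exact two-sided permutation p of 0.0393. Within the 4 slides the difference ran from -1.11 to -0.23 and was lower on 4 of 4. Without cHF+F+ROSI replicate 8 it was -1.06, and without replicate 1, the lowest mouse, -0.64. With cHF+ROSI replicate 1 and cHF+F+ROSI replicate 2 left out together, chosen after the data were seen for a dim array and for fibre markers that stood apart, the difference was -0.69 and no longer passed the unadjusted threshold.

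Scd2, the second delta-9 desaturase of muscle, did not pass the test. Its log2 ratios ran from -0.76 over a median of 0.11 to 0.43 in cHF+ROSI and from -0.51 over a median of 0.02 to 0.34 in cHF+F+ROSI. The groups covered the same range, and the log2 fold change was -0.10 with a confidence interval of -0.46 to 0.26. Within slides it ran from -0.84 to 0.75. The difference between Scd1 and Scd2 in the same mouse was 0.71 lower in cHF+F+ROSI on the log2 scale, which an exact permutation test over the mice did not separate from 0 (p = 0.0775). These data therefore did not show that the 2 desaturases responded differently.

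Srebf1 had the smallest p of the 10 genes. Its probe (chr11:60015907-60015966 in NCBI36, minus strand) was well above background on 16 of 16 arrays. The log2 ratios ran from -0.30 over a median of 0.17 to 0.33 in cHF+ROSI and from -0.57 over a median of -0.43 to 0.22 in cHF+F+ROSI. Of the 8 cHF+F+ROSI mice, 7 were below the cHF+ROSI mean and 6 below every cHF+ROSI mouse, and replicate 2 was the exception. The log2 fold change was -0.43 (SE 0.124, confidence interval -0.69 to -0.16), or 1.34-fold lower. The limma p was 0.00303, the adjusted p 0.372 and the exact permutation p 0.0104. Srebf1 was lower on 4 of 4 slides, by values from -0.78 to -0.14. From the Cy5 channel alone, without the reference, it was -0.30 and no longer passed the unadjusted threshold. Which transcripts of SREBP-1 the probe reads was not examined here.

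Of the 3 enzymes of synthesis, Acaca alone passed the unadjusted test, and in the higher direction. The log2 ratios of its probe at chr11:84217052-84217111 (NCBI36) ran from -0.27 over a median of -0.09 to 0.01 in cHF+ROSI and from -0.07 over a median of 0.05 to 0.31 in cHF+F+ROSI. All 8 cHF+F+ROSI mice were above the cHF+ROSI mean, and 4 were above every cHF+ROSI mouse. The log2 fold change was 0.15 (SE 0.057, limma p = 0.0182, adjusted p = 0.574, exact permutation p = 0.0134), and it was positive on 4 of 4 slides, from 0.09 to 0.30. The call passed in 10 of 13 other settings, and was lost from the Cy5 channel alone (a difference of 0.03), with median centring and in the authors' table. The 3 dim Acaca probes, which failed the filter, were well above background in Cy5 on 0, 7 and 5 of 16 arrays. They stood at 0.00, -0.03 and -0.07 and did not repeat the rise. The probe that passed was itself rather dim, with a mean signal over background of 4.93 in Cy5 and 2.39 in Cy3. Values so near background cannot decide between the probes.

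Fasn differed more between mice than between diets. The log2 ratios of its bright probe (chr11:120623236-120623295 in NCBI36) ran from -0.65 over a median of 0.34 to 0.46 in cHF+ROSI and from -0.25 over a median of 0.40 to 2.62 in cHF+F+ROSI. The medians lay close together, and the highest value belonged to cHF+F+ROSI replicate 8, the mouse that was also highest for Scd1. The log2 fold change was 0.41 with a confidence interval of -0.22 to 1.05 (exact permutation p = 0.259), and 0.13 without that mouse. The dimmer Fasn probe gave 0.14, and 0.0009 without that mouse. Acly had a log2 fold change of 0.06 with a confidence interval of -0.08 to 0.20, and of 0.009 without the same mouse. Its dim second probe, which failed the filter, was well above background on 0 arrays.

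The genes that make and lengthen polyunsaturated fatty acids moved little. Elovl5 was covered by a pair of probes on chromosome 9. The probe at chr9:77769477-77769536 (NCBI36) ran from 0.02 over a median of 0.13 to 0.35 in cHF+ROSI and from -0.17 over a median of -0.01 to 0.15 in cHF+F+ROSI. Of the cHF+F+ROSI mice, 7 lay below the cHF+ROSI mean and 4 below every cHF+ROSI mouse. The log2 fold change was -0.15 (SE 0.055, limma p = 0.0162, adjusted p = 0.565, exact permutation p = 0.0126), and it was negative on 4 of 4 slides. The brighter probe, at chr9:77770082-77770141, gave -0.13 with a confidence interval of -0.28 to 0.01 (exact permutation p = 0.0751), so both probes pointed one way and 1 of them passed. That call was lost with median centring and from the Cy5 channel alone.

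Fads1 had a log2 fold change of 0.04 with a confidence interval of -0.09 to 0.18, and Fads2 one of 0.01 with an interval of -0.10 to 0.11. For both desaturases the interval leaves out a change of the size measured for Srebf1. The Srebf1 probe was far brighter, with a mean Cy5 signal over background of 827 against 11.4 for Fads1 and 5.57 for Fads2. With the processed signals of Feature Extraction, the software that read the spots, Acaca went from 0.15 to 0.37 and the dimmer Fasn probe from 0.14 to 0.37. Acly went from 0.06 to 0.02, while the bright Srebf1 probe stayed at -0.43 and the bright Fasn probe went from 0.41 to 0.44. Fads1 and Fads2 stood at 0.07 and -0.07 with those signals. Ratios of dim probes thus depended on the processing, and the intervals of Fads1 and Fads2 hold for the main processing only. Elovl6, which lengthens palmitate to stearate, ran from -0.76 to 0.09 in cHF+ROSI and from -0.64 to 0.06 in cHF+F+ROSI. Its log2 fold change was 0.00, with a wider interval of -0.27 to 0.27. The signs of Fads2 and Elovl6 changed between ways of normalizing the arrays, and that of Fads1 in a few of them, so no direction is given for them.

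**Figure D2:**
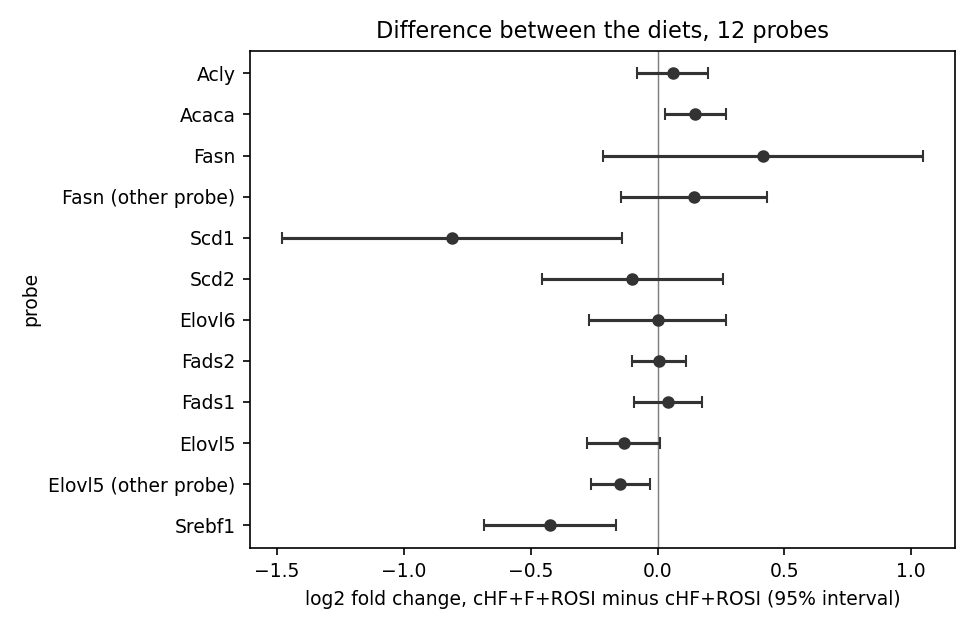
Log2 fold change, cHF+F+ROSI minus cHF+ROSI (horizontal axis), of the 12 probes (vertical axis). Points are limma estimates over 8 mice a group and bars confidence intervals. The intervals of Scd1, Srebf1, Acaca and 1 Elovl5 probe leave out 0, and those of Fasn and Scd1 are the widest.

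The other genes of the pathway were taken from a list of 45 genes, of which 44 were on the array and 36 passed the filter. Their median log2 fold change was 0.01. At an unadjusted limma p of up to 0.05, 2 were lower in cHF+F+ROSI and 3 higher, where 3.96% and 3.5% of all probes were, and none passed after adjustment. The lower genes were both regulators. Insig1, which holds SREBP in the endoplasmic reticulum and is itself a target of SREBP, stood at -0.14 (exact permutation p = 0.0345), and Nr1h2, which encodes the oxysterol receptor LXRβ, at -0.14 (exact permutation p = 0.0087). Thrsp, which encodes Spot 14, a protein of lipogenic tissues, stood at 0.26 (exact permutation p = 0.0228). Hacd1, listed under its older symbol Ptpla, is the dehydratase of the elongation cycle that muscle uses, and stood at 0.17 (exact permutation p = 0.0466). Acacb, which makes the malonyl-CoA that restrains mitochondrial fatty acid oxidation, stood at 0.14 (exact permutation p = 0.0474) and is named because it passed. With cHF+ROSI replicate 1 and cHF+F+ROSI replicate 2 left out together, 1 of the 36 passed in place of 5, and after median centring of the ratios 0 did.

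By role, the 7 genes that supply acetyl-CoA, malonyl-CoA and NADPH had a median of 0.01, with 1 higher, and the 6 genes of the other steps of the elongation cycle 0.05, also with 1 higher. The 5 other desaturases and electron carriers had a median of 0.04, and the 3 genes of mitochondrial fatty acid synthesis -0.05, with none past the threshold. The 14 regulators had a median of -0.02, with 2 lower and 1 higher. At the same threshold, 3.96% of all probes were lower and 3.5% higher, and counts of 1 or 2 genes describe no role. Of the 5 other elongases, Elovl1 alone passed the filter, at -0.15 (exact permutation p = 0.106). Scd3, Scd4 and Fads6 did not pass the filter. Srebf2, Scap and the carbohydrate sensor Mlxipl stood at -0.10, 0.12 and -0.12 and did not pass the test. These 3 and Elovl1 were named for their roles, after their values were seen.

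The cholesterol genes, which SREBP also drives, were read from 15 genes, of which 14 passed the filter. Their median was -0.05, and 1 of 14 was lower at an unadjusted p (3.96% of all probes), Msmo1 (listed as Sc4mol, a demethylase of the sterol pathway) at -0.18 (exact permutation p = 0.0396). None passed after adjustment. Of the synthesis enzymes, Sqle stood at -0.17 and Dhcr7 at 0.10.

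**Figure D3:**
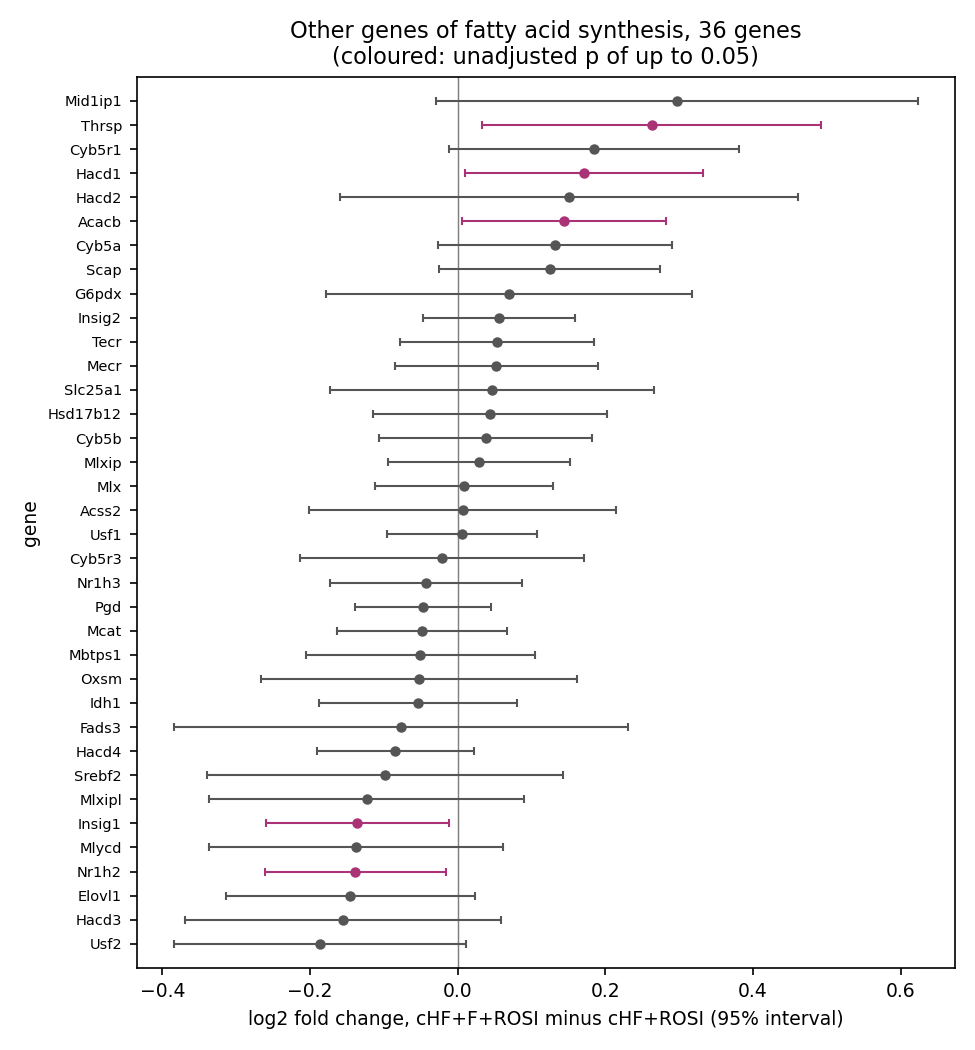
Log2 fold change, cHF+F+ROSI minus cHF+ROSI (horizontal axis), of the 36 other genes of fatty acid synthesis that passed the filter (vertical axis, in order of the value). Points are limma estimates over 8 mice a group, bars confidence intervals, and colour marks the 5 genes with an unadjusted p of up to 0.05, none of which passed after adjustment.

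Scd1 and Fasn had the largest spread of the members between mice of a diet. The within-group SD of Scd1 was 0.708 on the log2 scale, larger than that of 99.4% of all probes, and that of Fasn was 0.666, larger than 99.3%. The median over all probes was 0.137. Without cHF+F+ROSI replicate 8, the SD was 0.524 for Scd1 and 0.361 for Fasn, and the latter then lay beside the 0.377 of Scd2. The dimmer Fasn probe had an SD of 0.298 with that mouse and 0.0976 without it. With all mice, Scd2 followed at 0.374, Elovl6 at 0.280 and Srebf1 at 0.269. Acly, Acaca, Fads1 and both Elovl5 probes lay between 0.105 and 0.139, and Fads2 had the smallest SD, 0.0923. The mean Cy5 signal over background of the member probes ran from 4.81 for the dimmer Fasn probe to 827 for Srebf1. Both Fasn probes read the same gene and differed in SD, so this order is one of probes and not of genes.

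Markers of fat cells varied with Scd1 among mice of one diet. The mean log2 ratio of 8 adipocyte markers (Adipoq, Cfd, Plin1, Cidec, Lep, Retn, Fabp4 and Cidea), all above background on the arrays, ran from -1.002 over a median of -0.32 to 0.26 in cHF+ROSI and from -1.23 over a median of -0.03 to 0.96 in cHF+F+ROSI. The groups overlapped, and the mean was 0.256 higher in cHF+F+ROSI, which an exact permutation test did not separate from 0 (p = 0.419). Of the 8 markers, Cidea alone passed the unadjusted limma threshold between the diets, where 3.5% of all probes were higher. Cidea was higher by 0.46 (adjusted p = 0.654, exact permutation p = 0.0639). In whole muscle, fewer cells of a type and less RNA per cell cannot be told apart.

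Over all 16 mice, Pearson's r between Scd1 and the adipocyte mean was 0.58 (permutation p = 0.0201, adjusted over 8 marker lists 0.161) and Spearman's rho 0.45 (permutation p = 0.0825, adjusted 0.544). Without the 2 mice farthest from the median of Scd1, cHF+F+ROSI replicates 1 and 8, r was 0.26. These mice were picked by Scd1 itself, and a narrower range of Scd1 can lower r. The drop therefore does not settle how far the pooled relation rests on them. Within the diets r was 0.82 for the 8 cHF+ROSI mice and 0.83 for the 8 cHF+F+ROSI mice. In limma with the diet and the adipocyte mean as terms, Scd1 rose by 0.947 for each unit of the adipocyte mean on the log2 scale (adjusted p = 0.00645). Of the other 19390 probes, 0.289% (56) followed the adipocyte mean upwards at an adjusted p under 0.05.

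Scd1 was also compared between mice of a like adipocyte level, as a description chosen after the data were seen. In 5 pairs of a cHF+F+ROSI and a cHF+ROSI mouse the adipocyte means lay within 0.1 of each other. The pairs drew on 4 mice of each diet, some used more than once, and the cHF+F+ROSI mice were replicates 2, 3, 4 and 7. Replicate 8, the mouse highest for Scd1, had an adipocyte mean of 0.96. The highest in cHF+ROSI was 0.26, so replicate 8 could enter no pair. Replicates 1, 5 and 6 had no partner within the limit either. Scd1 was lower in the cHF+F+ROSI mouse of 5 of 5 pairs, by log2 differences from -1.64 to -0.56. The count depends on the limit of 0.1. Just outside it, cHF+F+ROSI replicate 6 (adipocyte mean -0.33, Scd1 -0.21) was not lower than cHF+ROSI replicate 5 (adipocyte mean -0.46, Scd1 -0.23). The 2 largest differences, -1.64 and -1.61, both involved cHF+ROSI replicate 1, the mouse with the dim array. With the adipocyte mean as a term, which was added after the data were seen, the log2 fold change of Scd1 was -1.05 (SE 0.188, confidence interval -1.45 to -0.65, adjusted p = 0.0856 by limma). Background counts in that fit were 8.18% at an unadjusted and 0.0155% at an adjusted p. Srebf1 stood at -0.43 (adjusted p = 0.394), Acaca at 0.12 (adjusted p = 0.58) and the Elovl5 probe at -0.15 (adjusted p = 0.557), and these 3 passed the unadjusted threshold. With 1 mouse left out, the adjusted p of Scd1 in that fit passed 0.05 in 2 of 16 cases and went up to 0.286. The 2 cases were without cHF+F+ROSI replicate 8 (0.0125) and without cHF+F+ROSI replicate 6 (0.0428).

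**Figure D4:**
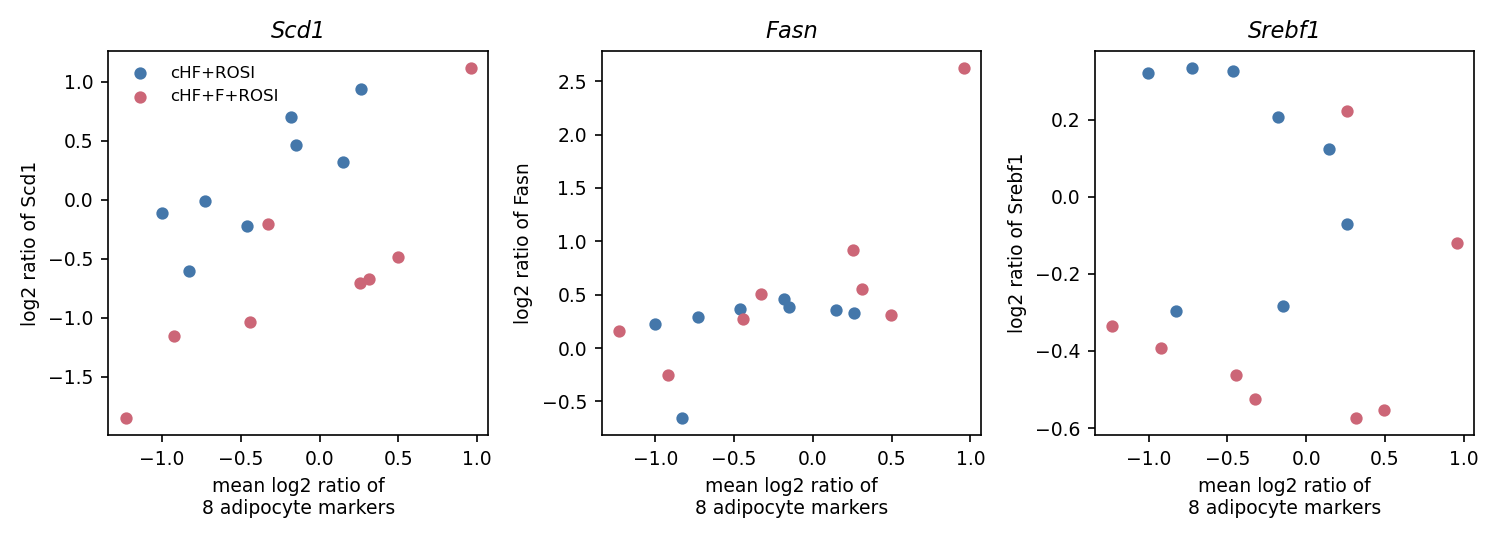
Log2 ratio of Scd1, Fasn and Srebf1 (vertical axes) against the mean log2 ratio of 8 adipocyte markers (horizontal axes), 1 point a mouse. Scd1 goes up with the markers within each diet, with most but not all cHF+F+ROSI mice lower at a like marker level. Fasn has 1 mouse at 2.62, and Srebf1 shows no trend with the markers.

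Of the other marker lists, none passed with Scd1 over the 16 mice. Over both diets together, after the diet means were removed, r with Scd1 was 0.05 for slow fibre markers, 0.10 for fast fibre markers, 0.05 for red blood cell markers, -0.39 for macrophage, -0.24 for endothelial, -0.01 for fibroblast and -0.06 for general muscle markers. In the cHF+F+ROSI mice alone it was -0.72 for macrophage and -0.49 for endothelial markers, and without the 2 farthest mice the pooled r was 0.46 for endothelial and 0.31 for slow fibre markers, above the 0.26 of the adipocyte list. The mean of the endothelial markers differed between the diets, by a test that was not adjusted over the lists. Their mean ran from -0.21 to 0.01 in cHF+ROSI and from -0.47 to -0.15 in cHF+F+ROSI, a difference of -0.18 (exact permutation p = 0.00357), with 3 of 6 markers lower at an unadjusted limma p (3.96% of all probes). These were Cldn5 at -0.45 (exact permutation p = 0.0109, adjusted p = 0.406), Cdh5 at -0.16 and Kdr at -0.27. Pecam1 at -0.16, Tek at -0.06 and Tie1 at 0.01 did not pass. No endothelial marker passed after adjustment. The part of this difference in those of Scd1 and Srebf1 was not tested. Of the other lists, 1 of 6 fibroblast markers, Lum, was lower by the unadjusted limma threshold (-0.23, exact permutation p = 0.0674), where 3.96% of all probes were. No slow fibre, fast fibre, macrophage, red blood cell or muscle marker passed.

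Genes that varied with Scd1 beyond the diet were then sought across all probes, with the Scd1 ratio as a term beside the diet. Of 19397 probes, 0.0155% (3) passed an adjusted p of 0.05, all with a positive slope, and none of the 3 passed between the diets. Slc1a5, a glutamine transporter, rose by 0.515 for each unit of Scd1 on the log2 scale (adjusted p = 0.0125). Tkt, the transketolase of the pentose phosphate pathway, rose by 0.336 (adjusted p = 0.0468), and Prkar2b, a regulatory subunit of protein kinase A that fat cells express strongly, rose by 0.900 (adjusted p = 0.0468). These 3 also followed the adipocyte mean, at adjusted p-values of 3.37e-05, 0.022 and 9.38e-08. They were named because they passed. Without the 2 farthest mice, their pooled r with Scd1 went from 0.51 to 0.16 for Slc1a5, from 0.61 to 0.49 for Tkt and from 0.63 to 0.36 for Prkar2b. All 3 calls were lost from the Cy5 channel alone (adjusted p from 0.42 to 0.789) and with the replicate block (0.255). The call of Slc1a5 was lost in 3 of 16 fits that left out 1 mouse, namely cHF+ROSI replicate 7 (adjusted p = 0.0553), cHF+F+ROSI replicate 1 (0.0986) and cHF+F+ROSI replicate 8 (0.218), and those of Tkt and Prkar2b in 12 each.

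Among the members, the 3 enzymes of synthesis passed the unadjusted threshold with Scd1 and the other genes did not. Fasn had a slope of 0.773 for each unit of Scd1 (adjusted p = 0.074), past the unadjusted threshold, and of 0.414 without cHF+F+ROSI replicate 8 (adjusted p = 0.67). The dimmer Fasn probe had a slope of 0.277 (adjusted p = 0.569), Acaca one of 0.119 (adjusted p = 0.502) and Acly one of 0.106 (adjusted p = 0.9999), all past the unadjusted threshold and short of the adjusted one. Without the 2 farthest mice, the pooled r with Scd1 went from 0.22 to -0.18 for Acaca and from 0.35 to -0.02 for Acly. For the dimmer Fasn probe it went from 0.41 to -0.002. In the cHF+ROSI mice alone, r was 0.62 for Acaca, 0.47 for Acly and -0.05 for the dimmer Fasn probe. By gene, 3 of 9 members were positive at an unadjusted p and none negative, where 2.21% and 1.38% of all probes were. Scd2 (slope 0.083) and Srebf1 (slope 0.035) did not pass, nor did Fads1, Fads2, Elovl5 and Elovl6, all at an adjusted p of 0.9999.

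Of the 36 other pathway genes, 7 were positive with Scd1 at an unadjusted p and none negative, where 2.21% and 1.38% of all probes were. None passed after adjustment. Those 7, named after their values were seen, included the NADPH-producing enzymes Pgd (slope 0.0867, adjusted p = 0.698) and G6pdx (slope 0.207). The mitochondrial citrate carrier Slc25a1, which feeds Acly, had a slope of 0.254 (adjusted p = 0.11), and Thrsp one of 0.250 (adjusted p = 0.204). The others were Hacd2 (listed as Ptplb), Fads3 and Insig1. Hacd2 and Fads3 also followed the adipocyte mean at adjusted p-values of 0.00108 and 6.28e-05. All 8 adipocyte markers were positive with Scd1 at an unadjusted p. Of the cholesterol genes 0 of 14 were, which lies near the 2.21% of all probes.

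Ranked by Pearson's r with Scd1 over the 16 mice, diet included, the 10 highest genes ran from 0.844 to 0.708. Pgd led, with an r of 0.844 (permutation p = 4e-05, adjusted over 19309 probes 0.772), a Spearman's rho of 0.797 (permutation p = 0.00032, adjusted 1.0) and an r of 0.756 without the 2 farthest mice. The next were Snrpa, Nup98, Smad4, Zfp35, Tmem45b, Cebpa, Ntrk2, Anxa5 and Npr3. Cebpa, a transcription factor of fat cells, had an r of 0.715. The 5 lowest were 4930544O15Rik at -0.776, Sh3glb1 at -0.770, St8sia5 at -0.766, C1qbp at -0.758 and Tmco4 at -0.749. None of the 19309 probes passed an adjusted permutation p of 0.05, where 952 (4.93%) had an unadjusted one of up to 0.05, so the order of the 15 genes is a description. The smallest p that the permutations can give is 1e-05, so a single probe could not have passed. Fasn had an r of 0.50 (permutation p = 0.0466, adjusted 0.951), a rho of 0.44 (permutation p = 0.0908, adjusted 1.0) and an r of 0.25 without the 2 farthest mice. Without those mice the order of the members changed, with an r of 0.61 and 0.49 for the Elovl5 probes, 0.43 for Srebf1 and 0.34 for Scd2, ahead of Fasn.

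**Figure D5:**
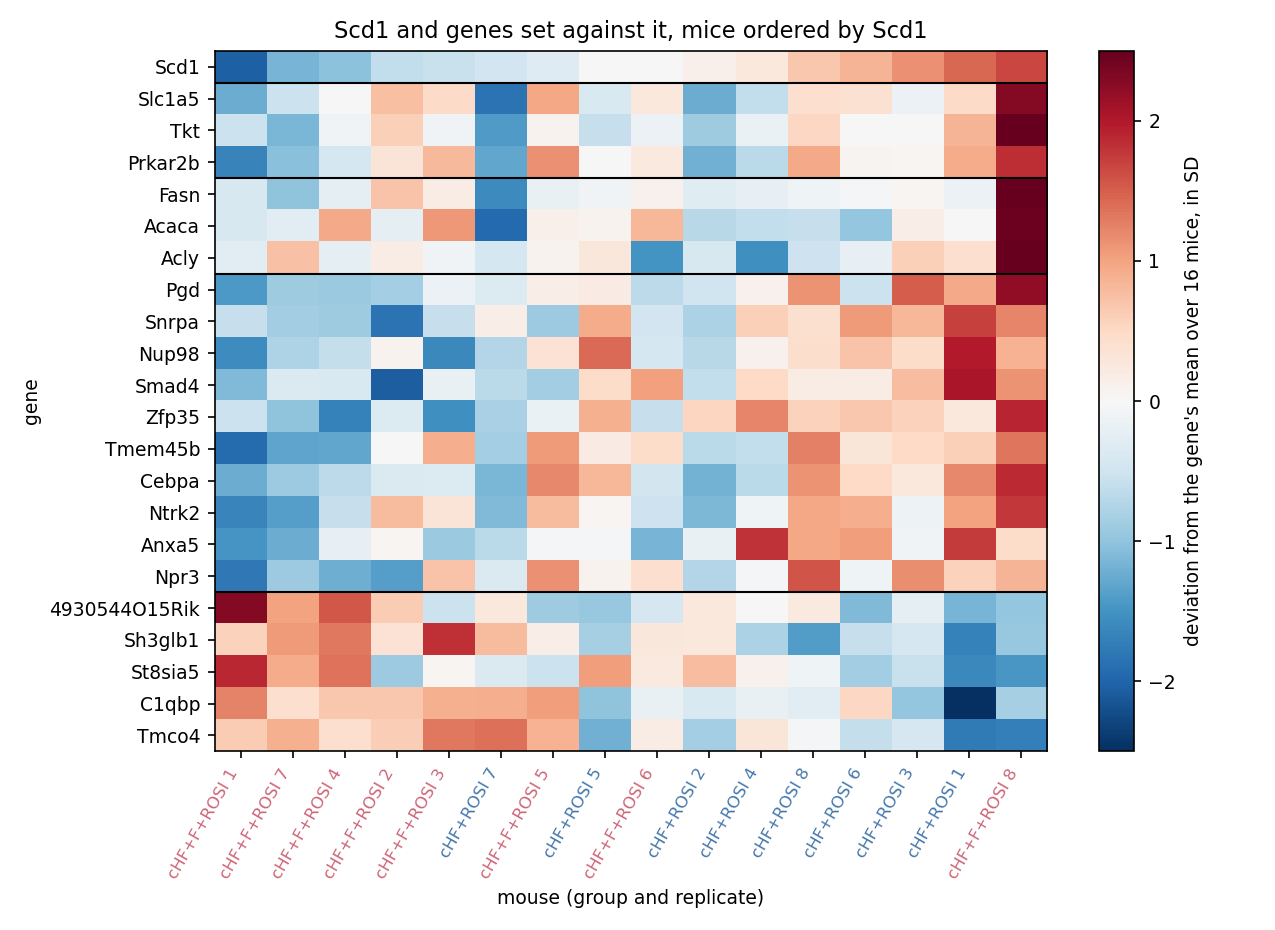
Deviation from each gene's mean over 16 mice, in SD (colour), of Scd1 and of genes set against it (vertical axis), with mice ordered by Scd1 (horizontal axis, group and replicate). The blocks hold, from the top, Scd1, the 3 genes past an adjusted p with Scd1 beside the diet, Fasn, Acaca and Acly, and the 10 highest and 5 lowest genes by r, none of which passed after adjustment; most values of cHF+F+ROSI replicate 8, on the right, are high in the upper blocks.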

How the data were processed

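The data were 16 two-colour Agilent arrays of mouse gastrocnemius, 8 mice a diet, with the mouse in Cy5, a common reference pool in Cy3 and no dye swap. The authors read spots with Feature Extraction, version 10.5.5.1 per the labels and 10.5.1.1 per the file headers, and they deposited the spot intensities as well as a table of log2 values normalized in GeneMaths XT. The present fits started from the deposited median intensities. Background was corrected by normexp (offset 50), control spots and outlier-flagged spots were left out, spots were kept where the mean signal over background was at least 2 in both channels, and ratios were normalized by loess within arrays and averaged per probe. limma 3.58.1 in R 4.3.3 tested 19398 of 41174 probes, with Benjamini-Hochberg adjustment, beside exact permutation tests over mice (Python 3.11.15, numpy 2.4.6). Correlations with Scd1 used 100000 permutations. No pair of arrays was identical. The number of arrays and the dimness of Cy3 (median 1.78 to 2.02 over background) limit precision. The tests were tested on simulated data.

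Groups came from the labels. RNA of the cHF+ROSI mice was also labelled for another series. Probe positions are those in the files (NCBI36); exon, intron and untranslated annotation was not used here. Where a gene of a list had several probes, the brightest that passed was taken. Named genes were all members, the 10 highest and 5 lowest by r with Scd1 and, of each list, genes past an adjusted p or the 4 with the smallest p; of the marker lists, the report names fewer genes than this rule allows, and a few others are named after their values were seen or because they passed. One gene of the cholesterol list that the rule names is not reported here. The members and lists were chosen with earlier results of these data known. Alternatives were other background corrections, normalizations, filters, blocks and weights, the authors' log2 table, the methods' t-test and leaving out each mouse.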

Additional observations from a re-analysis of the deposited data

Results flagged for a closer look

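Of 40 groups of 8 mice examined, 7 had 1 mouse far from the others by Dixon's criterion, where chance gives about 2. For Fasn, cHF+F+ROSI replicate 8 stood at 2.62 on the log2 scale (next mouse 0.91) and, by the dimmer probe, at 1.29 (next 0.27), while cHF+ROSI replicate 7 stood at -0.65 (next 0.22). For the dimmer Elovl5 probe, cHF+ROSI replicate 6 stood at 0.35 (next 0.15). In cHF+F+ROSI replicate 2 the slow fibre markers had a mean of -1.98 (next -0.55), and the same mouse had the lowest mean of the fast fibre markers in its group, 0.24 (next 0.39). In cHF+F+ROSI replicate 6 the red blood cell markers averaged 1.19, with the next mouse at 0.06.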

How the results depend on the processing

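Across 14 other settings the log2 fold change of Scd1 ran from -1.26 to -0.69, past an unadjusted limma p of 0.05 in 12 and past an adjusted one in 0; the exceptions were scale normalization and leaving out cHF+ROSI replicate 1 with cHF+F+ROSI replicate 2 (below, the pair of arrays). Leaving out 1 mouse at a time gave -1.06 to -0.64, all past an unadjusted p. In limma with the adipocyte mean as a term, Scd1 passed an adjusted p of 0.05 in 2 of 12 other settings. It stood at -1.11 (adjusted p = 0.0469) without background correction and at -1.06 (0.046) with array quality weights. In the settings that did not pass, the adjusted p went up to 0.81, from Cy5 alone. With 1 mouse left out, Scd1 in that fit ran from -1.15 to -0.996. Scd1 minus Scd2 gave -0.92 to -0.49, past the threshold without cHF+F+ROSI replicate 6 or 8 (exact permutation p = 0.0466 and 0.0149). The count of 4 members past an unadjusted p became 2 with median centring and 1 from Cy5 alone, 4 to 5 with 1 mouse left out. The pathway count of 5 became 0 with median centring, 3 with scale normalization, 3 from Cy5 alone, 8 in the authors' table, 1 with the pair of arrays left out, and 3 to 6 with 1 mouse left out. The adipocyte mean kept an r with Scd1 of 0.455 to 0.643 with 1 mouse left out, and of 0.77 to 0.86 within diets.

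The 3 probes following Scd1 became 11 without background correction, 5 with Feature Extraction's processed signals, 5264 with scale normalization, 0 from Cy5 alone, 1 with no filter, 10 with array quality weights, 6 with the pair of arrays left out and 0 with Scd1 as the only term; with 1 mouse left out they ran from 0 (cHF+ROSI replicate 7 or cHF+F+ROSI replicate 8) to 15 (cHF+F+ROSI replicate 6), with 12 and 10 without cHF+ROSI replicates 5 and 8, 4 without cHF+ROSI replicate 1, 2 without cHF+F+ROSI replicate 5 and 1 without each of the others. Across these settings the cause was not tested.

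Signs turned for members that did not pass. Fads2 was -0.0287 without background correction, -0.0722 with processed signals, -0.14 from Cy5 alone, -0.0697 in the authors' table, -0.0046 with no filter and -0.0074 with the adipocyte term. Elovl6 was -0.12, -0.27, -0.10, -0.18, -0.0012 and -0.0463 in the same order, -0.0502 with scale normalization and -0.0092 with weights. Fads1 was -0.000501 from Cy5 alone and -0.0179 with weights, and Acly -0.0123 from Cy5 alone. With 1 mouse left out, Fads2 ran from -0.015 to 0.028 and Elovl6 from -0.066 to 0.056.

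The replicate numbers did not pair the mice: deviations of same-numbered mice correlated by -0.338 to 0.727, over 0.1 in 4 of 8 pairs, and 1 of 8 mice matched its own number best. With the replicate block, Scd1 stood at -0.81 (adjusted p = 0.627), 4 members passed unadjusted and 0 probes followed Scd1. With the slide as a block, Scd1 still passed the unadjusted threshold. The methods' t-test called 1465 of 19398 probes unadjusted and 2 after Benjamini-Hochberg, with 4 and 0 among the members. Another Scd1 probe was not run, since the array holds 1.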
